A study of Mus musculus with 5 samples.

Results

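Genes of the large airways, their glands and their basal cells were followed over 5 whole-lung RNA libraries, 1 library for each group. They are Bpifa1, Bpifb1, Bpifa6, Ltf, Krt5, Krt14, Krt15 and Trp63, 8 of the 23183 gene symbols counted. They were chosen by symbol with their read counts in these same libraries already known, so the differences below are a description and no test was made on them.

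All 5 groups were whole lung of female wild-type BALB/c mice. The PM10/OVA/CPX group was given airborne particulate matter (PM10) and the protein allergen ovalbumin (OVA) and was treated with an inhibitor of chitinase-1 (CPX). The PM10/OVA/Dex group had both exposures and dexamethasone, a synthetic glucocorticoid. The PM10/OVA group had both exposures and neither treatment, the PM10 group had the particles alone, and the control group had no treatment. Mice inhaled PM10 through the nose on 4 occasions within 2 weeks, and OVA was first injected intraperitoneally and later instilled intranasally. CPX was given by 6 intraperitoneal injections within 3 weeks and dexamethasone by 3 such injections during the final week. Mice were killed 2 days after the final challenge. The sources used here state no age, no dose, and not whether a library came from 1 animal or a pool. How much trachea or main bronchus each lung piece held is not stated either.

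The conducting airways are lined by ciliated, secretory and basal cells. Basal cells sit on the basement membrane, act as stem cells of this lining and are marked by the transcription factor Trp63 and by the keratins Krt5, Krt14 and Krt15. In mice they and the submucosal glands lie mostly in the trachea and the largest bronchi. Serous cells of the glands and surface secretory cells release antimicrobial proteins, among them lactoferrin (Ltf), which binds iron, and the BPI-fold proteins Bpifa1 and Bpifb1, which coat the mucosa of the nose and upper airways.

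Totals ran from 11993222 to 16929068 counts per library, so that a single count was worth 0.0577 to 0.0841 CPM, the unit of level used here (a gene's count relative to the TMM-scaled library total). Intervals are exact 95% intervals and cover counting error only. With 1 library in each group no difference has a replicate check. The lung surfactant genes, as a check of the tissue, were abundant everywhere, with Sftpc at 12728 to 13995 CPM. The control library was highest for most measured genes of 3 lists. These were 14 of 14 atrial heart muscle genes, 12 of 13 fat genes and 8 of 9 airway cartilage genes. It was also highest for 6 of 6 myoepithelial and 8 of 14 basal cell genes, lists that share genes with the 8, and for 7 of 14 club cell genes. For alveolar type 2 and mucous cell genes the counts were 1 of 10 and 0 of 10. The share of all measured genes that were highest in control was not computed. A gene is called measured here when its mean over the 5 libraries was at least 1 CPM, which held for 14305 genes and for 7 of the 8 (Krt14 was below). Krt5, Bpifa6 and Trp63 passed largely through the libraries in which they were highest.

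In the genome the 8 genes, all protein-coding, lie in 5 places (GRCm38, GENCODE M21). Bpifa6 (chromosome 2, 153974945 to 154000495), Bpifa1 (154142880 to 154149219) and Bpifb1 (154190818 to 154220369) belong to the BPI-fold gene cluster and are read from the same strand. Bpifa1 and Bpifb1 are 41599 bases apart, with Bpifa5 between them. Krt15 (chromosome 11, 100131758 to 100135928) and Krt14 (100203162 to 100207548) lie 67234 bases apart in the cluster of acidic keratins. Krt5 (chromosome 15, 101707070 to 101712898) is in the cluster of basic keratins. Ltf is on chromosome 9 (111019271 to 111042767) and Trp63 on chromosome 16 (25683763 to 25892102). As a look at reads that could fit elsewhere, every 50-base stretch of each gene's annotated transcripts was searched in all other genes' transcripts. No stretch was shared for Bpifa1, Bpifb1, Bpifa6, Ltf or Trp63, against 8.52% for Krt5, 13.9% for Krt14 and 0.640% for Krt15. The stretches of Krt5 were shared mainly with Krt6a and those of Krt14 with Krt16 and Krt17. Krt6a, Krt6b and Krt16 had 0 counts in all 5 libraries. Krt17 had 0 counts in PM10/OVA/CPX, 9 in PM10/OVA/Dex, 0 in PM10/OVA, 4 in PM10 and 18 in control. How reads that fit both Krt14 and Krt17 were counted is not stated.

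The 250 bases before the start of transcription are shown for 4 of the genes. These were picked because Bpifa1 and Bpifb1, of the same cluster, differed between libraries in unlike ways. Bpifa1, Ltf and Krt5, by contrast, had the same 2 highest libraries (below). Sequences are from RefSeq (GRCm38.p6), each written 5′ to 3′ on the gene's own strand up to the base before the start, and 6 of the 8 genes had an entry. The windows are chr2:154142630-154142879 for Bpifa1, chr2:154190568-154190817 for Bpifb1 (the first of 2 start sites in RefSeq), chr9:111019042-111019291 for Ltf and, on the minus strand, chr15:101712906-101713155 for Krt5. Capitals mark matches on either strand to 7 motifs that were searched.
Bpifa1: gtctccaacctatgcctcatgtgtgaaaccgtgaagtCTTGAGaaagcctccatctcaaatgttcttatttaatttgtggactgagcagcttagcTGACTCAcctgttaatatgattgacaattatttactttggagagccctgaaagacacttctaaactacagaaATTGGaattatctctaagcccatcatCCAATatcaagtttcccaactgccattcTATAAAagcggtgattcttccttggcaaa
Bpifb1: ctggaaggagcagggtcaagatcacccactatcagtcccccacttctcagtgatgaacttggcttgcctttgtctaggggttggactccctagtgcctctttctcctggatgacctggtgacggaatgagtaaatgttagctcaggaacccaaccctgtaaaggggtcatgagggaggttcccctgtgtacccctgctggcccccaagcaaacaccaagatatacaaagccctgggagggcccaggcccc
Ltf: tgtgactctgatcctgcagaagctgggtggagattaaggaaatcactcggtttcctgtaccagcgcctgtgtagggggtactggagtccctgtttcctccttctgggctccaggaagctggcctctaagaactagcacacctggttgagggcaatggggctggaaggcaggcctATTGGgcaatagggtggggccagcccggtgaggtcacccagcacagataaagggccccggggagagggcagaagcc
Krt5: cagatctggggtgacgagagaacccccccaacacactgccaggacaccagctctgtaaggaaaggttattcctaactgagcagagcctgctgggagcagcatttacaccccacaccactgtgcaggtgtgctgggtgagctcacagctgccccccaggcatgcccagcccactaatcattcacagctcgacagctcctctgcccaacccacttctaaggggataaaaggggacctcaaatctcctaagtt

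The Bpifa1 window held a TATA box (TATAAA) from -29 to -24, CCAAT boxes (CCAAT) from -57 to -53 and, on the other strand, from -83 to -79, an AP-1 site (TGANTCA) from -155 to -149 and an NKX2-1 core (CTCAAG) on the other strand from -213 to -208, with -1 the last base before the start. The Ltf window held a CCAAT box on the other strand from -76 to -72, as did the Bpifa6 window from -91 to -87. These matches did not overlap each other. No match to these letters was found in the windows of Bpifb1, Krt5 or Krt14. The Krt14 window (chr11:100206031-100206280, minus strand) and the second Bpifb1 window (chr2:154200130-154200379) lie inside the annotated genes. They are not the sequence before the outermost annotated start. A forkhead site (TGTTTAC), an Sp/KLF box (GGGCGG) and a glucocorticoid response element were found in none of the 7 windows. Of 32851 RefSeq windows of this length, 12.4% held the TATA box, 33.8% the CCAAT box, 6.75% the AP-1 site and 13.3% the NKX2-1 core. The forkhead site was in 3.17%, the Sp/KLF box in 32.7% and the glucocorticoid element in 0.387%. These are letter matches only.

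Of the 8 genes, Bpifa1 was the most abundant in control lung and much lower in all 4 exposed libraries, least so with dexamethasone. It was at 60.1 CPM (753 counts) in PM10/OVA/CPX, 464 CPM (5514 counts) in PM10/OVA/Dex, 88.8 CPM (1408 counts) in PM10/OVA, 74.5 CPM (899 counts) in PM10 and 1264 CPM (21916 counts) in control. Control was highest, the dexamethasone library was next, and the other 3 lay close together at the bottom. Against control, Bpifa1 was 21.0-fold lower in PM10/OVA/CPX (interval 19.5 to 22.6), 2.73-fold lower in PM10/OVA/Dex (2.65 to 2.81), 14.2-fold lower in PM10/OVA (13.5 to 15.0) and 17-fold lower in PM10 (15.9 to 18.2). Against PM10/OVA it was 5.22-fold higher in PM10/OVA/Dex (4.92 to 5.54) and 1.48-fold lower in PM10/OVA/CPX (1.35 to 1.62).

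Bpifb1, a larger BPI-fold protein of mucous and gland cells, had another order. Its level was 205 CPM (2564 counts) in PM10/OVA/CPX, 308 CPM (3667 counts) in PM10/OVA/Dex, 127 CPM (2019 counts) in PM10/OVA, 65.3 CPM (788 counts) in PM10 and 152 CPM (2628 counts) in control. The dexamethasone library was highest and PM10 lowest, and no 2 neighbours in the order had an interval of their ratio that included 1. Bpifb1 was 2.04-fold higher in PM10/OVA/Dex than in control (1.94 to 2.14) and 2.32-fold lower in PM10 than in control (2.14 to 2.52). It was 2.42-fold higher in PM10/OVA/Dex (2.29 to 2.56) and 1.61-fold higher in PM10/OVA/CPX (1.52 to 1.70) than in PM10/OVA, and 1.95-fold higher in PM10/OVA than in PM10 (1.80 to 2.12).

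Bpifa6, another gene of the chromosome 2 cluster, was rare and nearly confined to 2 of these 5 libraries. It had 0 counts in PM10/OVA/CPX, 141 in PM10/OVA/Dex, 0 in PM10/OVA, 2 in PM10 and 31 in control. In PM10/OVA/Dex this was 11.9 CPM (9.98 to 14), against 1.79 CPM (1.21 to 2.54) in control, 6.63-fold higher (4.47 to 10.1). A count of 0 allows up to 3 counts, which is 0.240 CPM in PM10/OVA/CPX and 0.189 CPM in PM10/OVA. With that floor for PM10/OVA, the level of Bpifa6 in PM10/OVA/Dex was at least 62.7-fold higher than in PM10/OVA (exact lower limit 50.3), and at least 9.44-fold lower in PM10/OVA than in control (exact lower limit 7.23).

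Ltf followed the order of Bpifa1 at the top, with a smaller range. It was at 79.0 CPM (989 counts) in PM10/OVA/CPX, 305 CPM (3632 counts) in PM10/OVA/Dex, 88.9 CPM (1410 counts) in PM10/OVA, 92.9 CPM (1122 counts) in PM10 and 410 CPM (7103 counts) in control. PM10 and PM10/OVA could not be told apart at this depth (ratio of PM10 to PM10/OVA 1.04, 0.965 to 1.13). Against control, Ltf was 5.19-fold lower in PM10/OVA/CPX (4.85 to 5.55), 1.34-fold lower in PM10/OVA/Dex (1.29 to 1.40), 4.6-fold lower in PM10/OVA (4.35 to 4.88) and 4.41-fold lower in PM10 (4.14 to 4.70). It was 3.43-fold higher in PM10/OVA/Dex than in PM10/OVA (3.23 to 3.65).

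Lactoferrin is also a protein of neutrophil granules, so the neutrophil list is given beside it. The other neutrophil genes summed to 1381 CPM in PM10/OVA/CPX, 845 CPM in PM10/OVA/Dex, 2163 CPM in PM10/OVA, 1283 CPM in PM10 and 274 CPM in control, lowest where Ltf was highest. Lcn2, which made up most of these sums in the exposed libraries, was 20.3-fold higher in PM10/OVA than in control (19.1 to 21.5). S100a8, a subunit of the neutrophil protein calprotectin, was 3.95-fold higher in PM10/OVA than in control (3.6 to 4.34). In PM10, S100a8 was at 34.5 CPM and Lcn2 at 980 CPM, against 33.0 and 68.6 CPM in control. In PM10 against control, 3 of the 10 other measured genes of this list were at least 2-fold higher and 0 lower. Of all measured genes 3.7% were higher and 2.04% lower there. Camp and Ngp, proteins stored in the same granules as lactoferrin, were at 0.126 to 1.04 CPM and 0.414 to 2.16 CPM over the 5 libraries, and Elane was at 0 counts in all of them.

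Of the basal cell genes, Krt15 and Krt5 had the order control, then PM10/OVA/Dex, then the rest. Krt15 was at 0.878 CPM (11 counts) in PM10/OVA/CPX, 6.22 CPM (74 counts) in PM10/OVA/Dex, 0.631 CPM (10 counts) in PM10/OVA, 1.08 CPM (13 counts) in PM10 and 19.6 CPM (340 counts) in control. The 3 lowest libraries did not differ beyond counting error between neighbours. Against control it was 22.3-fold lower in PM10/OVA/CPX (12.3 to 45.1), 3.15-fold lower in PM10/OVA/Dex (2.44 to 4.11), 31.1-fold lower in PM10/OVA (16.7 to 65.4) and 18.2-fold lower in PM10 (10.5 to 34.5). In PM10/OVA/Dex it was 9.86-fold higher than in PM10/OVA (5.07 to 21.4).

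Krt5, the basic keratin of basal cells, had 0 counts in PM10/OVA/CPX, 41 counts (3.45 CPM) in PM10/OVA/Dex, 2 counts (0.126 CPM) in PM10/OVA, 14 counts (1.16 CPM) in PM10 and 114 counts (6.57 CPM) in control. Krt5 was at least 27.4-fold lower in PM10/OVA/CPX than in control, with 3 counts as the floor (exact lower limit 22.0). The ratio was 52.1-fold lower in PM10/OVA than in control on 2 counts (14.1 to 435), 5.67-fold lower in PM10 (3.24 to 10.7) and 1.91-fold lower in PM10/OVA/Dex (1.32 to 2.80). PM10/OVA/Dex was 27.3-fold higher than PM10/OVA, again on 2 counts (7.10 to 233). Krt5 was 9.19-fold lower in PM10/OVA than in PM10, on 2 and 14 counts with a wide interval (2.11 to 83.3). Krt15 was 1.71-fold lower there (0.692 to 4.35). These intervals overlap, so a difference between the keratins was not shown.

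Krt14, the usual partner of Krt5 in basal cell filaments, was barely detected, with 3 counts in PM10/OVA/CPX, 0 in PM10/OVA/Dex, 4 in PM10/OVA, 3 in PM10 and 16 in control. Control was highest at 0.922 CPM (0.527 to 1.5). Dexamethasone did not go with a higher count of this keratin, in contrast to Krt5 and Krt15, though 0 counts in that library allows up to 0.252 CPM.

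Trp63, the transcription factor that basal cells need, did not follow the keratins closely. It was at 0.240 CPM (3 counts) in PM10/OVA/CPX, 1.18 CPM (14 counts) in PM10/OVA/Dex, 1.77 CPM (28 counts) in PM10/OVA, 0.663 CPM (8 counts) in PM10 and 2.31 CPM (40 counts) in control. No 2 neighbours in this order differed beyond counting error. Against control Trp63 was 9.63-fold lower in PM10/OVA/CPX (3.07 to 48.6) and 3.48-fold lower in PM10 (1.61 to 8.61). In PM10/OVA/Dex it was 1.96-fold lower than in control (1.04 to 3.90). PM10/OVA was close to control (1.31-fold lower, 0.786 to 2.20) although Krt5 and Krt15 were near 0 there. Trp63 was 7.37-fold lower in PM10/OVA/CPX than in PM10/OVA on 3 counts (2.28 to 37.9) and 1.5-fold lower in PM10/OVA/Dex than in PM10/OVA (0.764 to 3.08).

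**Figure D1:**
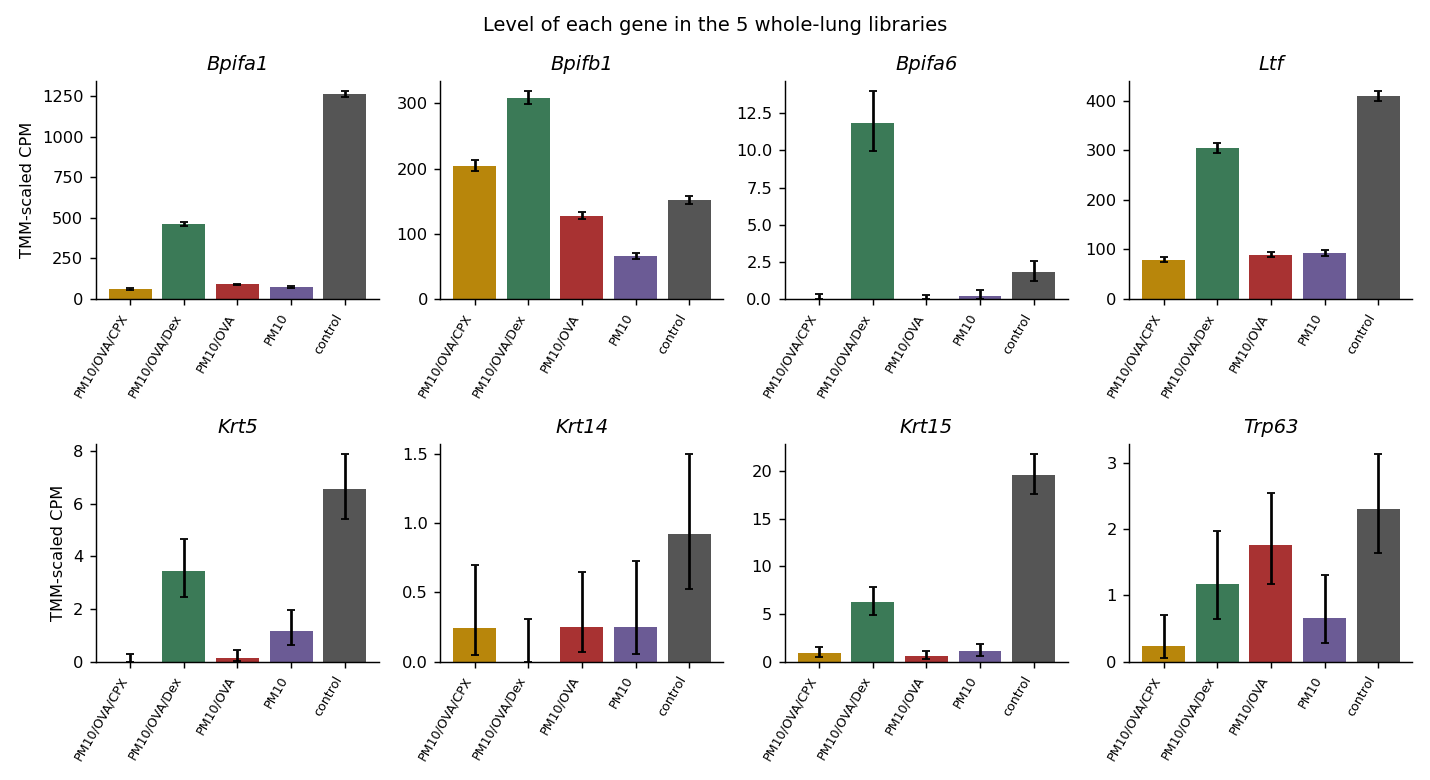
Bars give TMM-scaled CPM of each gene in the 5 libraries (linear axes from 0, a scale of its own for each gene), with exact 95% Poisson intervals as error bars that cover counting error only. Control and PM10/OVA/Dex are the 2 highest libraries for Bpifa1, Ltf, Krt5 and Krt15, while Bpifb1 and Bpifa6 are highest in PM10/OVA/Dex, at 308 and 11.9 CPM.

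Per kilobase of exon the order of the genes within a library differed between dexamethasone and control lungs. In PM10/OVA/Dex, Bpifa1 was at 300 CPM per kilobase, Ltf at 88.5, Bpifb1 at 85.3, Bpifa6 at 7.54, Krt15 at 3.52, Krt5 at 1.57 and Trp63 at 0.140. In control, Bpifa1 was at 818 CPM per kilobase, Ltf at 119, Bpifb1 at 41.9, Krt15 at 11.1, Krt5 at 2.99, Bpifa6 at 1.14, Krt14 at 0.525 and Trp63 at 0.275. Bpifb1 was the most abundant of the 8 by this measure in PM10/OVA/CPX, with 56.6 CPM per kilobase against 38.9 for Bpifa1.

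Calls were made at 2-fold on the log2(CPM + 1) scale, where the pseudocount shrinks the ratios of rare genes. In PM10/OVA/CPX against control 6 of 7 were lower (all but Bpifb1), where 2.99% of all measured genes were, and 0 were higher (2.73% of all genes). In PM10/OVA/Dex against control 2 were lower, Bpifa1 and Krt15 (2.01% of all genes), and 2 were higher, Bpifb1 and Bpifa6 (1.57% of all genes). In PM10/OVA against control 5 were lower, Bpifa1, Bpifa6, Ltf, Krt5 and Krt15 (2.73% of all genes), and 0 were higher (3.17%). In PM10 against control 6 were lower, all but Trp63, which was just short at a log2 ratio of -0.99 (2.04% of all genes), and 0 were higher (3.7%). These 4 comparisons share the control library, and the genes were chosen with them known, so nothing is read from these counts.

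The comparisons between exposed groups set no level against the control library, which still entered the scaling and the filter on low values. In PM10/OVA/CPX against PM10/OVA 1 gene was lower, Trp63 (0.762% of all genes), and 0 were higher (0.636%). In PM10/OVA/Dex against PM10/OVA 6 were higher, all but Trp63 (1.2% of all genes), and 0 were lower (1.6%). With a pseudocount of 5, Krt5 and Krt15 were not called higher there. In PM10/OVA against PM10 0 were lower (1.27%) and 0 higher (0.692%). The call of Trp63 rests on 3 counts. It was lost with a pseudocount of 5, and also without the control library, where Trp63 no longer passed the filter and 0 genes were lower.

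**Figure D2:**
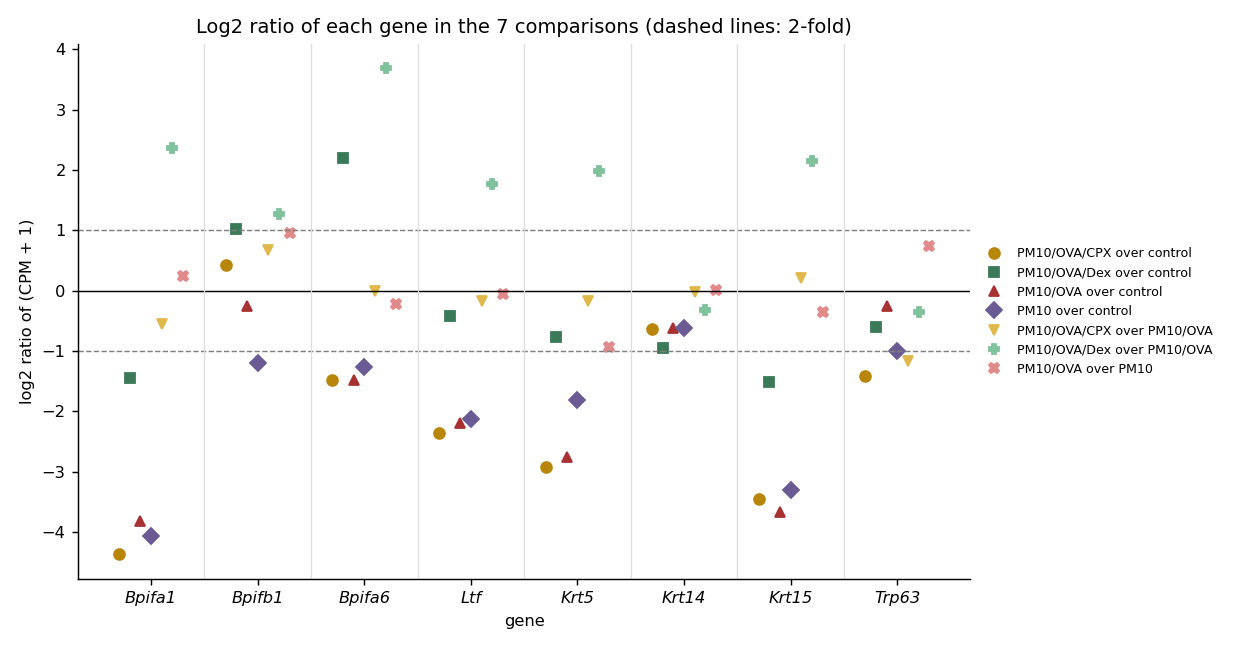
Points give the log2 ratio of (CPM + 1) for each gene in the 7 comparisons, named in the legend, with dashed lines at 2-fold. The ratios of PM10/OVA/Dex over PM10/OVA lie above the upper line for 6 genes, while those of the other exposed libraries over control lie below the lower line for Bpifa1, Bpifa6, Ltf, Krt5 and Krt15.

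Counts of 2 genes within a library do not depend on the scaling. Bpifa1 had 0.294 counts per Bpifb1 count in PM10/OVA/CPX (0.270 to 0.319), 1.5 in PM10/OVA/Dex (1.44 to 1.57), 0.697 in PM10/OVA (0.651 to 0.747), 1.14 in PM10 (1.04 to 1.26) and 8.34 in control (8.01 to 8.69). For these 2 genes of the chromosome 2 cluster, the intervals of the ratio did not overlap between any 2 of the 5 libraries. The ratio of Bpifa1 to Krt15, which lie on different chromosomes, varied less. There were 68.5 Bpifa1 counts per Krt15 count in PM10/OVA/CPX (38.0 to 138), 74.5 in PM10/OVA/Dex (59.3 to 95), 141 in PM10/OVA (76.3 to 294), 69.2 in PM10 (40.2 to 130) and 64.5 in control (57.9 to 72.0). Only PM10/OVA had an interval that lay apart from that of control. Ltf was between these, with 0.761 Bpifa1 counts per Ltf count in PM10/OVA/CPX, 1.52 in PM10/OVA/Dex, 0.999 in PM10/OVA, 0.801 in PM10 and 3.09 in control.

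**Figure D3:**
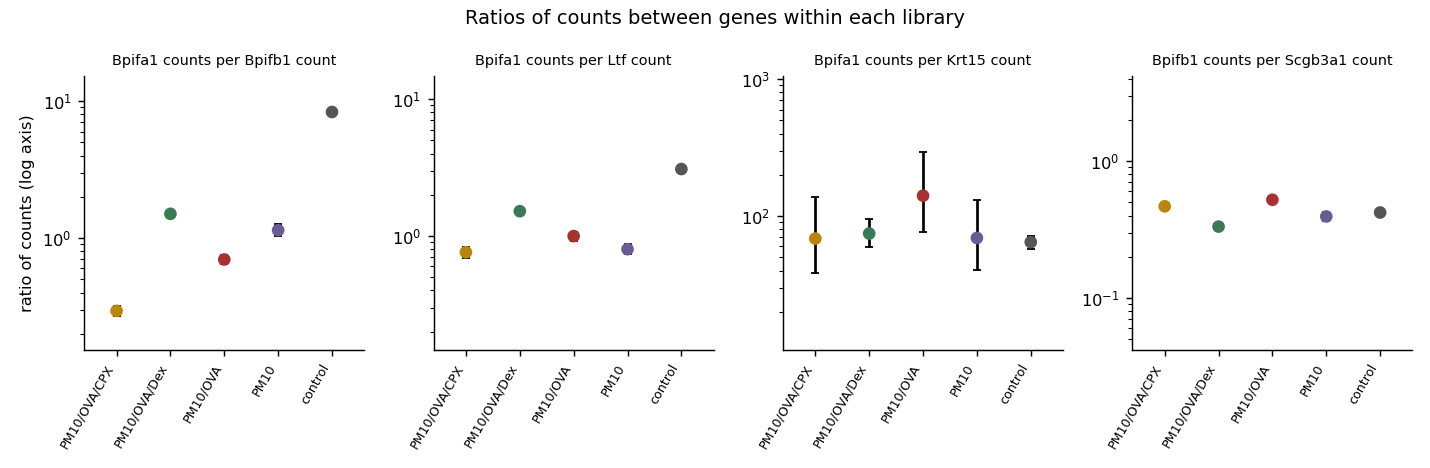
Points give the ratio of counts of 2 genes within each library on log axes that each span the same factor, with exact 95% intervals. Bpifa1 per Bpifb1 runs from 0.294 in PM10/OVA/CPX to 8.34 in control, whereas Bpifa1 per Krt15 lies between 64.5 and 141.

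The genes most like Bpifa1 and Krt5 were sought among all other measured genes, by the root-mean-square distance between profiles of log2(CPM + 1) over the 5 libraries, each centred on its own mean. Nearest to Bpifa1 were Krt15 (distance 0.40), then Car3 (0.46), Retn (0.53) and Thrsp (0.55), which are all genes of the fat list, and Myoc (0.56). Car3, for instance, was at 12.4 CPM in PM10/OVA/CPX, 74.8 CPM in PM10/OVA/Dex, 15.2 CPM in PM10/OVA, 29.8 CPM in PM10 and 253 CPM in control. Nearest to Krt5 were Slc5a8 (0.18), Cyp2e1 (0.23), Csrp3 (0.25) and Ckmt2 (0.26), the last 2 known from heart and skeletal muscle, and Cyp4a12b (0.27).

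Fat, heart muscle and cartilage genes moved with these levels in part. The fat list summed to 114 CPM in PM10/OVA/CPX, 357 CPM in PM10/OVA/Dex, 132 CPM in PM10/OVA, 159 CPM in PM10 and 945 CPM in control, the same top 2 libraries as for Bpifa1. The atrial heart muscle list summed to 276 CPM in PM10/OVA/CPX, 705 CPM in PM10/OVA/Dex, 317 CPM in PM10/OVA, 735 CPM in PM10 and 3569 CPM in control, so that PM10 stood slightly above PM10/OVA/Dex, unlike for Bpifa1. The airway cartilage list, of which 12 of 14 symbols were matched, summed to 50.1 CPM in PM10/OVA/CPX, 70.1 CPM in PM10/OVA/Dex, 23.5 CPM in PM10/OVA, 38.8 CPM in PM10 and 161 CPM in control. Chad made up most of that sum in PM10/OVA/CPX, PM10/OVA/Dex and PM10/OVA. Acan, the proteoglycan of cartilage, had 0 counts in PM10/OVA/CPX, 29 in PM10/OVA/Dex, 2 in PM10/OVA, 40 in PM10 and 618 in control, and Col2a1, its collagen, had 1, 27, 0, 23 and 333 counts in the same order of groups. In PM10/OVA/Dex against PM10/OVA, 6 of 9 measured cartilage genes, 8 of 13 fat genes and 6 of 14 heart genes were at least 2-fold higher. Of all measured genes 1.2% were. In PM10/OVA against PM10, 4 of 9 cartilage genes, 0 of 13 fat genes and 7 of 14 heart genes were at least 2-fold lower. Of all measured genes 1.27% were, and of the 7 measured airway genes 0 were. Krt5 was just short there at a log2 ratio of -0.94, and was 9.19-fold lower by CPM (2.11 to 83.3). The part of unequal tissue in the values of the 8 genes was not tested. In whole lung, fewer cells of a type and less RNA per cell cannot be told apart.

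Lists of ciliated and club cells differed less. The 14 ciliated cell genes summed to 2253 CPM in PM10/OVA/CPX, 2743 CPM in PM10/OVA/Dex, 2312 CPM in PM10/OVA, 2183 CPM in PM10 and 2990 CPM in control, with Foxj1, their master regulator, at 48.5 to 87.5 CPM. Sec14l3 made up most of each sum, with 1623 CPM in PM10/OVA/CPX and 2284 CPM in control. The median log2 ratio of the 14 genes against control was 0.01 in PM10/OVA/CPX, -0.07 in PM10/OVA/Dex, -0.37 in PM10/OVA and -0.45 in PM10. Set against the ciliated counts, a scaling chosen after the data were seen, Bpifa1 had 26.7 counts per 1000 in PM10/OVA/CPX, 169 in PM10/OVA/Dex, 38.4 in PM10/OVA, 34.1 in PM10 and 423 in control. Club cell genes summed to 24417 CPM in PM10/OVA/CPX, 31910 CPM in PM10/OVA/Dex, 23930 CPM in PM10/OVA, 18469 CPM in PM10 and 27775 CPM in control, most of it Scgb1a1. Within that list Cyp2a5, a detoxifying enzyme, had the same 2 highest libraries as Bpifa1, with 10.6 CPM in PM10/OVA/CPX, 76.7 CPM in PM10/OVA/Dex, 33.2 CPM in PM10/OVA, 35.5 CPM in PM10 and 297 CPM in control.

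Scgb3a1, a secretoglobin of the large airways, had the same order of libraries as Bpifb1. It was at 438 CPM in PM10/OVA/CPX, 929 CPM in PM10/OVA/Dex, 244 CPM in PM10/OVA, 166 CPM in PM10 and 360 CPM in control, and there were between 0.332 and 0.521 Bpifb1 counts per Scgb3a1 count in the 5 libraries. Mucous cell genes other than Bpifb1 had another order, with sums of 6305 CPM in PM10/OVA/CPX, 2226 CPM in PM10/OVA/Dex, 698 CPM in PM10/OVA, 191 CPM in PM10 and 180 CPM in control. Clca1, a secreted product of mucous cells, was at 5154 CPM in PM10/OVA/CPX, 1633 CPM in PM10/OVA/Dex, 313 CPM in PM10/OVA, 7.12 CPM in PM10 and 1.61 CPM in control.

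**Figure D4:**
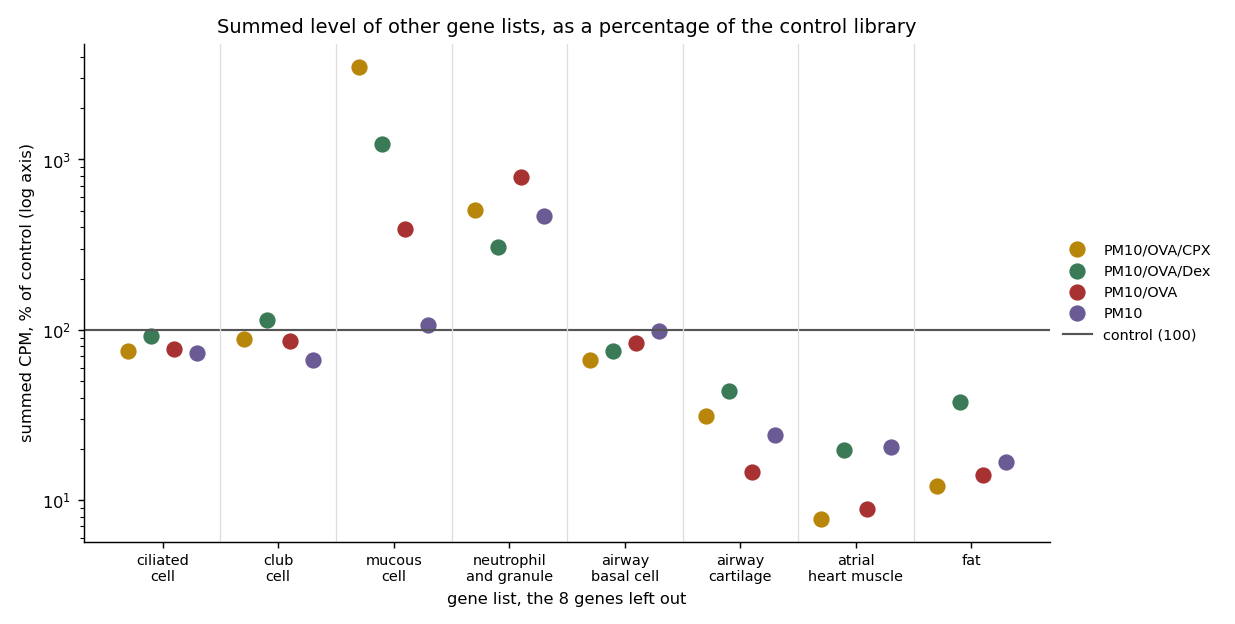
Points give the summed CPM of 8 other gene lists in each exposed library as a percentage of control (log axis), with the 8 genes of interest left out. Fat, heart and cartilage lists lie at 7.74% to 43.7% of control, ciliated cell genes at 73.0% to 91.7% and mucous cell genes at 106% to 3512%. Sec14l3 makes up most of the ciliated cell sums.

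The rest of the BPI-fold family gave little signal. Of 15 listed genes 5 were measured, and Bpifa2, Bpifa5, Bpifb2, Bpifb3, Bpifb6, Bpifb9b and Bpi had 0 counts in all 5 libraries. Bpifb5, of the same cluster, was at 2.16 to 4.98 CPM, and Lbp, which carries bacterial lipopolysaccharide, was at 73.1 CPM in PM10/OVA/CPX, 76.1 CPM in PM10/OVA/Dex, 105 CPM in PM10/OVA, 101 CPM in PM10 and 66.3 CPM in control. Neither was called at 2-fold on the log2(CPM + 1) scale in any of the 7 comparisons, though by CPM Bpifb5 was 2.31-fold lower in PM10/OVA/CPX than in PM10/OVA (1.48 to 3.72).

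The gland list did not share the difference from control seen for Ltf. Its 11 other measured genes had 6 at least 2-fold higher and 0 lower in PM10/OVA/CPX against control, 6 and 0 in PM10/OVA/Dex, 4 and 0 in PM10/OVA, and 3 and 1 in PM10. Of all measured genes 2.73%, 1.57%, 3.17% and 3.7% were higher in these comparisons, in the same order. Pigr, which carries antibodies across the epithelium, was 8.43-fold higher in PM10/OVA/CPX (8.07 to 8.82), 4.89-fold in PM10/OVA/Dex (4.67 to 5.13), 4.45-fold in PM10/OVA (4.25 to 4.66) and 3.27-fold in PM10 (3.12 to 3.44) than in control. Slpi, an inhibitor of neutrophil elastase, was 12.4-fold higher in PM10/OVA/CPX than in control (11.1 to 13.9). Of the measured genes, Muc5b and Tff2 also stood in the mucous cell list, and Scgb3a1 and Reg3g in the club cell list. Genes found mainly in gland and salivary acini were near 0, so these counts tell little about gland cells. Dcpp1, Dcpp2, Dcpp3 and Smr3a had 0 counts in all libraries, and Lpo and Muc19 had at most 1.

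Calls were few in the rest of the basal cell list. Of its 11 other measured genes 1, Ngfr, was at least 2-fold lower in PM10/OVA/CPX than in control (2.99% of all genes), and 0 were lower in PM10/OVA/Dex, PM10/OVA or PM10. Their median log2 ratio against control was -0.45 in PM10/OVA/CPX, -0.30 in PM10/OVA/Dex, -0.39 in PM10/OVA and -0.26 in PM10, where the median of all genes was within 0.02 of 0. Lama3 and Lamb3, chains of a laminin that alveolar cells also make, and Itga6, an integrin chain, were the most abundant at 54.3 to 179 CPM. Rarer genes of the list differed in unlike ways, and the following were picked after their values were seen. Sfn, an epithelial 14-3-3 protein, was 2.77-fold higher in PM10/OVA/Dex than in control (2.11 to 3.67), the 1 gene called higher there. Dapl1 was 3.43-fold lower in PM10/OVA/Dex than in control by CPM (1.58 to 8.48), on 8 and 40 counts. Ngfr, a neurotrophin receptor, had 12 counts in PM10/OVA/CPX, 20 in PM10/OVA/Dex, 43 in PM10/OVA, 13 in PM10 and 54 in control. Aqp3, a water and glycerol channel, was 2.30-fold lower in PM10/OVA than in control by CPM (1.57 to 3.42). Among unmeasured genes of the list, Krt17 had 0 counts in PM10/OVA/CPX, 9 in PM10/OVA/Dex, 0 in PM10/OVA, 4 in PM10 and 18 in control. Dlk2 had 2, 2, 0, 0 and 9 counts in the same order of groups.

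**Figure D5:**
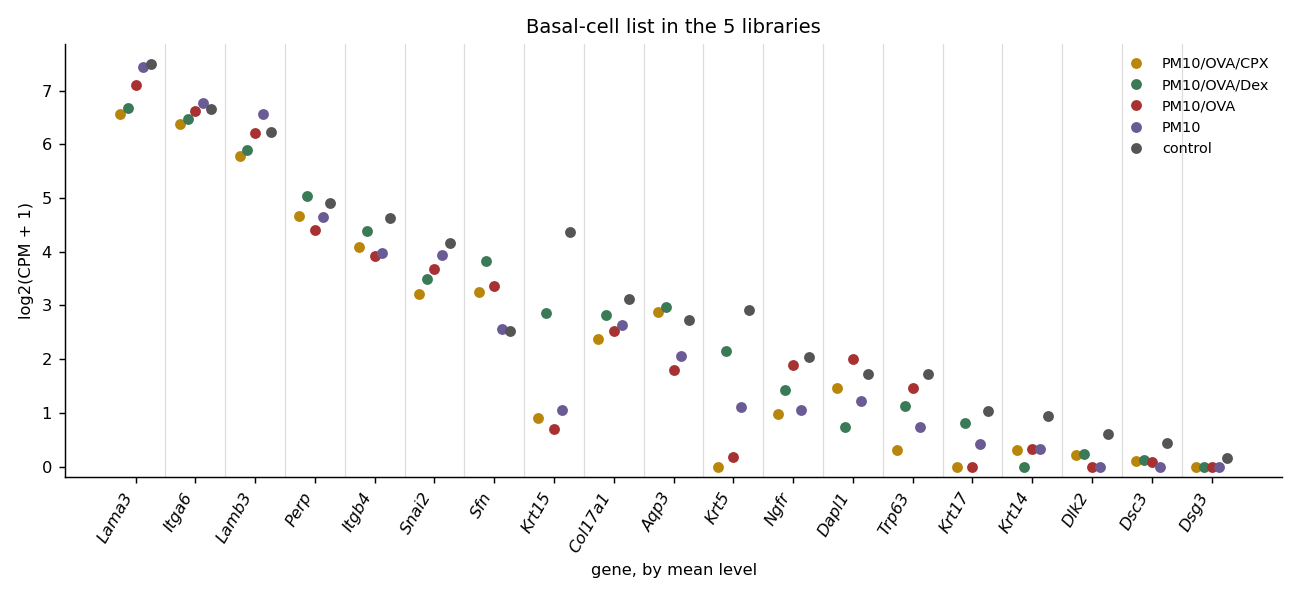
Points give log2(CPM + 1) of the 19 basal cell genes in the 5 libraries, ordered by mean level from left to right. Krt15 and Krt5 show the widest spread between libraries, with control on top, while Lama3, Itga6 and Lamb3 have the highest levels.

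Genes of other epithelia that carry the same keratins were mostly near 0. Of the squamous and hillock list 2 of 16 genes were measured, Krt10 and Ly6d, and neither was called at 2-fold in any comparison. Krt13 and Krt4 had at most 2 and 5 counts. Tgm3, a transglutaminase of cornified epithelium that was below the filter, had 6 counts in PM10/OVA/CPX, 12 in PM10/OVA/Dex, 8 in PM10/OVA, 4 in PM10 and 45 in control, with control and then PM10/OVA/Dex on top, as for Krt15. Of the thymic epithelium list the defining genes Foxn1, Aire and Psmb11 had 0 or 1 count in every library, and none of the 3 measured genes outside the 8, Cldn3, Cldn4 and Ccl25, was called at 2-fold on the log2(CPM + 1) scale. By CPM, Ccl25 was 2.30-fold higher in PM10/OVA than in control on 21 and 10 counts (1.04 to 5.46). Myoepithelial cells share Krt14 and Krt5 with basal cells and the contractile genes with smooth muscle. Their list without the keratins summed to 1273 CPM in PM10/OVA/CPX, 1221 CPM in PM10/OVA/Dex, 1290 CPM in PM10/OVA, 1112 CPM in PM10 and 1795 CPM in control, with Myh11 at 270 to 274 CPM in the 4 exposed libraries and 529 CPM in control. The alveolar type 2 list summed to 30589 CPM in PM10/OVA/CPX, 30913 CPM in PM10/OVA/Dex, 31365 CPM in PM10/OVA, 30273 CPM in PM10 and 24025 CPM in control.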

How the data were processed

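For every library the authors deposited raw, unnormalized read counts by gene symbol. Per the submitters' processing notes, TopHat and mm10 were used. The sources used here do not state the TopHat version, how reads were counted, with which annotation, or whether strand was used. Per the labels' protocols, RNA was taken with Trizol and libraries were made with the NEBNext Ultra II Directional kit. Counts were scaled to CPM with TMM factors over all 5 libraries (edgeR 4.0.16, R 4.3.3). Folds are ratios of CPM with exact conditional (Clopper-Pearson) 95% intervals from the counts (scipy 1.17.1), and a fold against 0 counts uses a floor of 3 counts per library. Calls at 2-fold use a pseudocount of 1 and genes averaging 1 CPM or more. The same functions were tested on simulated data. With 1 library per group no p-value was computed. Annotation was GENCODE M21 (GRCm38).

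The 8 genes, the 14 other lists and the 7 comparisons were chosen with earlier results of these data known. By rule, the 8 genes are given in every library. From each list the 3 most abundant measured genes and the 3 with the largest ratio of PM10 to control could be named, with the 5 genes nearest in pattern to Bpifa1 and to Krt5 outside predicted genes. Other genes, mostly defining markers, were named after their values were seen. Alternatives were DESeq2 1.42.0 size factors, library totals, pseudocounts of 0.25 and 5, no filter and a filter at a mean of 5 CPM.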

Additional observations from a re-analysis of the deposited data

How the results depend on the processing

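No paired analysis was possible because each group has 1 library. Of the 14 counts of genes past 2-fold, 8 of 84 values under the alternative settings moved by more than 1.5 times. A fall from 6 to 4 is exactly 1.5 times and is not among these 8. With a pseudocount of 5, 4 genes were higher in PM10/OVA/Dex than in PM10/OVA (0.384% of all genes), and Krt5 and Krt15 were lost. That pseudocount left 4 genes lower than control in PM10 (0.986% of all genes), 4 in PM10/OVA (1.42%) and 4 in PM10/OVA/CPX (1.5%). With library totals alone 1 gene was higher in PM10/OVA/Dex than in control, Bpifa6, since Bpifb1 fell just short. With a pseudocount of 0.25, PM10/OVA against PM10 had 1 gene lower (Krt5) and 1 higher (Trp63). Under either a pseudocount of 5 or a filter at a mean of 5 CPM, 0 genes were lower in PM10/OVA/CPX than in PM10/OVA. That filter, which keeps 4 of the 8 genes (Bpifa1, Bpifb1, Ltf and Krt15), left 3 genes lower in PM10/OVA and 3 in PM10/OVA/CPX than in control, and 1 higher in PM10/OVA/Dex (Bpifb1). Of settings added after seeing the data, TMM factors and filter without the control library left 0 genes lower in PM10/OVA/CPX than in PM10/OVA, because Trp63 no longer passed the filter. Scaling to the ciliated cell counts, most of which were Sec14l3, gave 1 gene lower in PM10/OVA against PM10 (Krt5). It moved the median log2 ratio of all genes against control by 0.40 in PM10/OVA/CPX, 0.12 in PM10/OVA/Dex, 0.36 in PM10/OVA and 0.43 in PM10, and by -0.24 in PM10/OVA/Dex against PM10/OVA. Under it Bpifb1 in PM10/OVA against control changed direction, to 1.09-fold, and in PM10 against control its ratio of 0.590 no longer passed 2-fold. With DESeq2 size factors all 47 folds of single genes stayed within their counting intervals, and with library totals 46 of 47 did. With the ciliated cell scaling 32 of 47 did, 14 left their intervals and 1, the reversal of Bpifb1 above, changed direction. The 14 included Bpifa1 and Ltf against control in every exposed library. Depth limits Krt14, Trp63, Bpifa6 and Krt5, which had 0 to 4 counts in at least 1 library.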

Other observations

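The patterns nearest to Ltf and Bpifb1 were looked up after the data had been seen. Nearest to Ltf, by the same distance of centred log2(CPM + 1) profiles over 5 libraries, were Cyp4a12b (0.09), B3galt2 (0.14), Cyp2e1 (0.21), Dmbt1 (0.21), a secreted scavenger receptor of mucosal surfaces, and Tmem45b (0.26). Dmbt1 was at 0.399 CPM in PM10/OVA/CPX, 4.62 CPM in PM10/OVA/Dex, 1.39 CPM in PM10/OVA, 1.08 CPM in PM10 and 7.55 CPM in control. Nearest to Bpifb1 were Scgb3a1 (0.22), Sox18 (0.24), Atp10b (0.24), Ptprn2 (0.25) and Cldn22 (0.28).

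Gp2, a glycoprotein of M cells and of the pancreas that stood in the gland list, was also highest with dexamethasone. It had 90 counts in PM10/OVA/CPX, 201 in PM10/OVA/Dex, 57 in PM10/OVA, 32 in PM10 and 12 in control, and was 24.4-fold higher in PM10/OVA/Dex than in control (13.7 to 48.1). Chad, of the cartilage list, did not follow the other cartilage genes. It was at 47.6 CPM in PM10/OVA/CPX, 57 CPM in PM10/OVA/Dex, 21.0 CPM in PM10/OVA, 19 CPM in PM10 and 52.4 CPM in control, while Acan in the same libraries had 0, 29, 2, 40 and 618 counts.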
